A study of Mus musculus with 4 samples.

Results

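The DNA replication and S phase genes were examined in HT-22 cells, an immortalized line made from mouse hippocampal neurons, with and without PGC-1α overexpression and with and without oxygen and glucose deprivation (OGD). The list holds 46 genes named for their role in copying the genome. All 46 had at least 1 transcript in the deposited table, out of 11502 genes in all, and all 46 passed the filter, which asked that the 4 libraries average 1 FPKM or more. FPKM is the number of sequenced fragments scaled to transcript length and library size. Ctrl cells are labelled wild type and by the methods carried a negative control lentivirus, PGC-1α cells carried a PGC-1α-overexpressing lentivirus, and each kind was also exposed to OGD, giving Ctrl+OGD and PGC-1α+OGD. The deprivation lasted 2 h in medium lacking serum and glucose, and the cells then spent 24 h in normal medium, so the libraries describe the recovery. Transduced cells had been selected with puromycin, and the promoter that drives PGC-1α is not given in the sources used here. Each group had 1 library. No difference below has a replicate check, no p value was computed, and the limit for naming a gene higher or lower was 1.5-fold on the scale of log2(FPKM + 1), where fold changes of low genes are understated.

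Replication starts in G1 phase, when the origin recognition complex together with CDC6 and CDT1 loads the MCM helicase onto DNA, a step called licensing. At the start of S phase, cyclin E with CDK2 and other kinases lead to the recruitment of CDC45 and GINS, which turn the loaded MCM ring into an active helicase. DNA polymerases then copy both strands with the help of the PCNA clamp, its loader RFC and the single-strand binding protein RPA. Many of these genes are E2F targets and are transcribed most strongly from late G1 phase into S phase. Mature neurons have left the cell cycle, whereas HT-22 cells divide in culture.

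The library totals lay between 331892 and 353381 FPKM, the number of reads behind them is unknown, and the precision of single values cannot be given. Ppargc1a, which encodes PGC-1α, was at 0.9 (Ctrl), 35.1 (PGC-1α), 0.103 (Ctrl+OGD) and 8.41 FPKM (PGC-1α+OGD). Of 14 neuron markers, 12 have no transcript in the table, including Rbfox3, Map2 and Tubb3, and the table holds only transcripts that reached 0.5 FPKM in at least 1 library. The other two, Syp and Camk2a, summed to 5.1 to 8.31 FPKM. Most of the defining neuron markers were therefore not found in these libraries. Of 6 fibroblast markers, Thy1 has no transcript in the table, and Col1a1, Col1a2, Col3a1, Pdgfra and Pdgfrb summed to 452 to 547 FPKM. Most of this came from Col1a1 (156 to 198 FPKM) and Col1a2 (236 to 265 FPKM), while Col3a1 was at 2.94 to 5.39 FPKM. The summed levels of the astrocyte (13.6 to 24.0 FPKM), oligodendrocyte (3.26 to 4.76 FPKM) and microglia markers (0.74 to 2.66 FPKM) were low, and none of the 5 endothelial markers had a transcript.

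The replication genes were expressed in all 4 libraries, from Pold1 at 0.894 to 2.47 FPKM up to Pcna at 114 to 142 FPKM. Their median level was 28.9 (Ctrl), 30.1 (PGC-1α), 36.9 (Ctrl+OGD) and 33.4 FPKM (PGC-1α+OGD). Over all 10604 genes tested, the medians were 12.8, 12.4, 12.3 and 12.3 FPKM in the same order. Ctrl was thus the library with the lowest replication gene levels and Ctrl+OGD the one with the highest. Ctrl held the lowest of the 4 values in 27 of the 46 genes, against 28.2% of all genes tested. Ctrl+OGD held the highest value in 31 of the 46, against 26.1% of all genes. The spread was small in most of them, with a median ratio of 1.39 between the highest and the lowest library, and 1.38 over all genes. In RNA from whole cultures, more cells in S phase and more RNA per cell cannot be told apart.

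**Figure D1:**
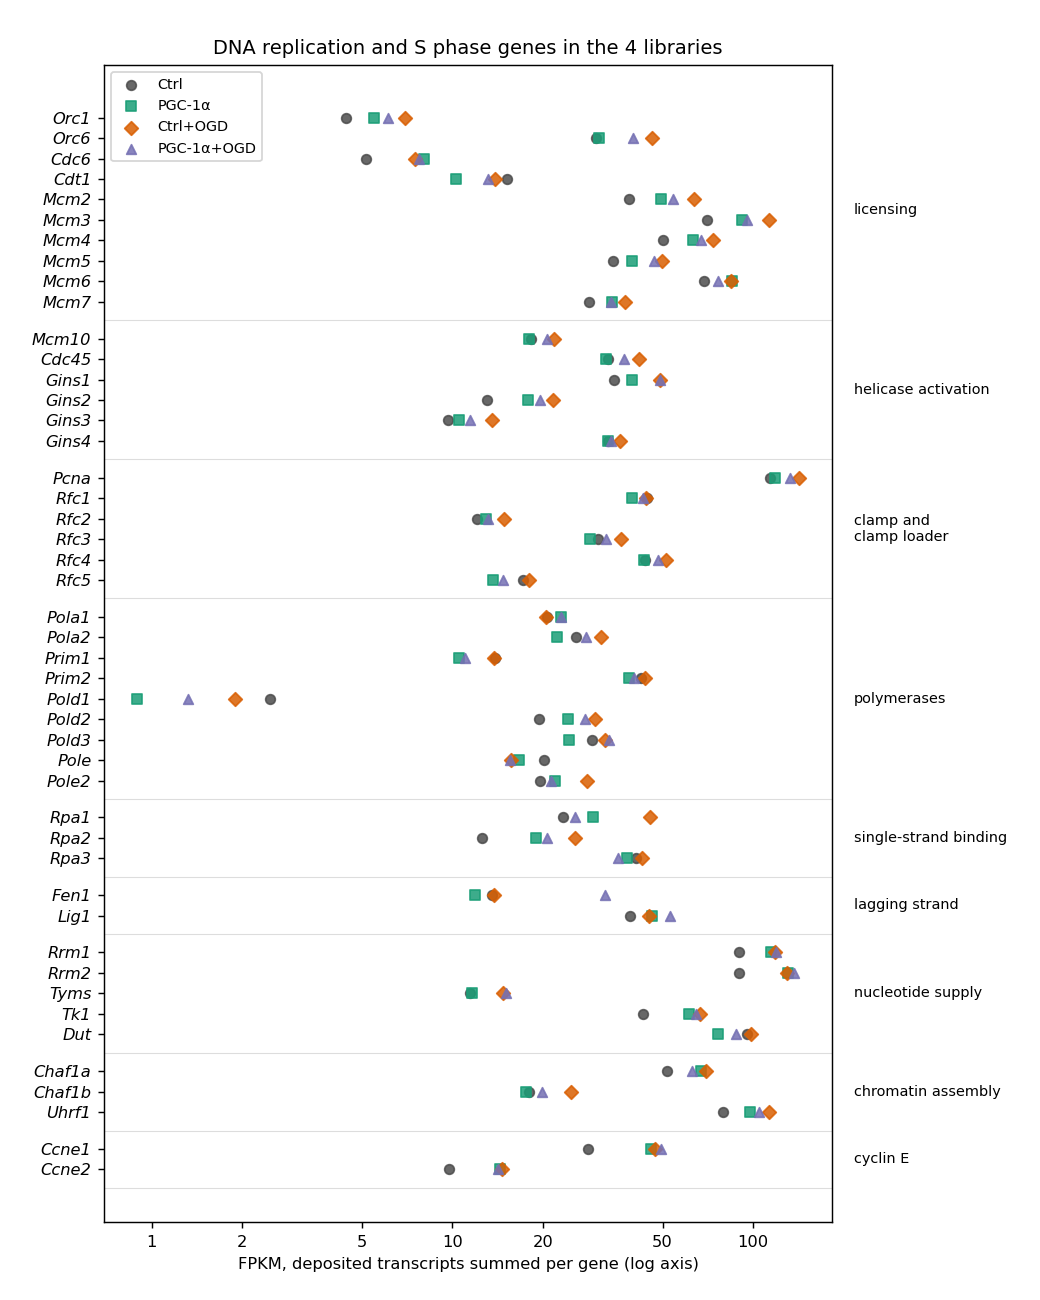
Level of each replication gene in the 4 libraries, in FPKM on a log axis, grouped by role, with 1 symbol per library and no error bars since each group has 1 library. The Ctrl circle lies furthest left in 27 of the 46 rows and the Ctrl+OGD diamond furthest right in 31, while Pold1 stands alone below 2.5 FPKM.

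After OGD, the replication genes of control cells were higher. In Ctrl+OGD vs Ctrl, 40 of the 46 log2 fold changes lay above 0, against 48.0% over all genes, and their median was 0.36, against -0.02. At the 1.5-fold limit, 9 of the 46 were higher, namely Ccne1, Gins2, Mcm2, Mcm3, Orc6, Pold2, Rpa1, Rpa2 and Tk1, against 6.2% of all genes. None was lower at that limit, against 7.71% of all genes, and the lowest value was that of Pole, the catalytic subunit of polymerase epsilon, at -0.34. No member reached 2-fold on the log2(FPKM + 1) scale, on which Rpa2 came nearest.

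In cells that already overexpressed PGC-1α, OGD went with smaller differences. In PGC-1α+OGD vs PGC-1α, 37 of the 46 genes were above 0, against 50.1% of all genes, with a median of 0.11 against 0.00 over all genes. Fen1 was the only member past 1.5-fold on the higher side, against 3.82% of all genes, and none was past it on the lower side, against 5.22%.

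PGC-1α overexpression without OGD divided the list. In PGC-1α vs Ctrl, 28 of the 46 genes were above 0, against 45.8% of all genes, and the median was 0.13 against -0.03. Ccne1 was the 1 gene at least 1.5-fold higher, against 4.91% of all genes, and Pold1 the 1 gene at least 1.5-fold lower, against 5.63%. Each count rests on 1 gene and changed under some of the alternative settings, so neither sets the list apart from all genes. By role, the medians were 0.60 for cyclin E, 0.35 for nucleotide supply, 0.32 for RPA, 0.29 for chromatin assembly and 0.28 for licensing. Helicase activation (0.05), the lagging strand genes Fen1 and Lig1 (0.03) and the clamp with its loader (-0.06) were near 0. The polymerases had a median of -0.20. The Ctrl library stands in this comparison and in Ctrl+OGD vs Ctrl, and a low Ctrl value enters both.

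With OGD, most members were slightly lower in PGC-1α cells. In PGC-1α+OGD vs Ctrl+OGD, 9 of the 46 genes were above 0, against 47.1% of all genes, with a median of -0.12 against -0.01. Fen1 was at least 1.5-fold higher, against 3.08% of all genes, and Rpa1 at least 1.5-fold lower, against 3.82%. Neither this comparison nor PGC-1α+OGD vs PGC-1α uses the Ctrl library. The Ctrl+OGD library stands in this comparison and in Ctrl+OGD vs Ctrl, and a high Ctrl+OGD value enters both with opposite sign.

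**Figure D2:**
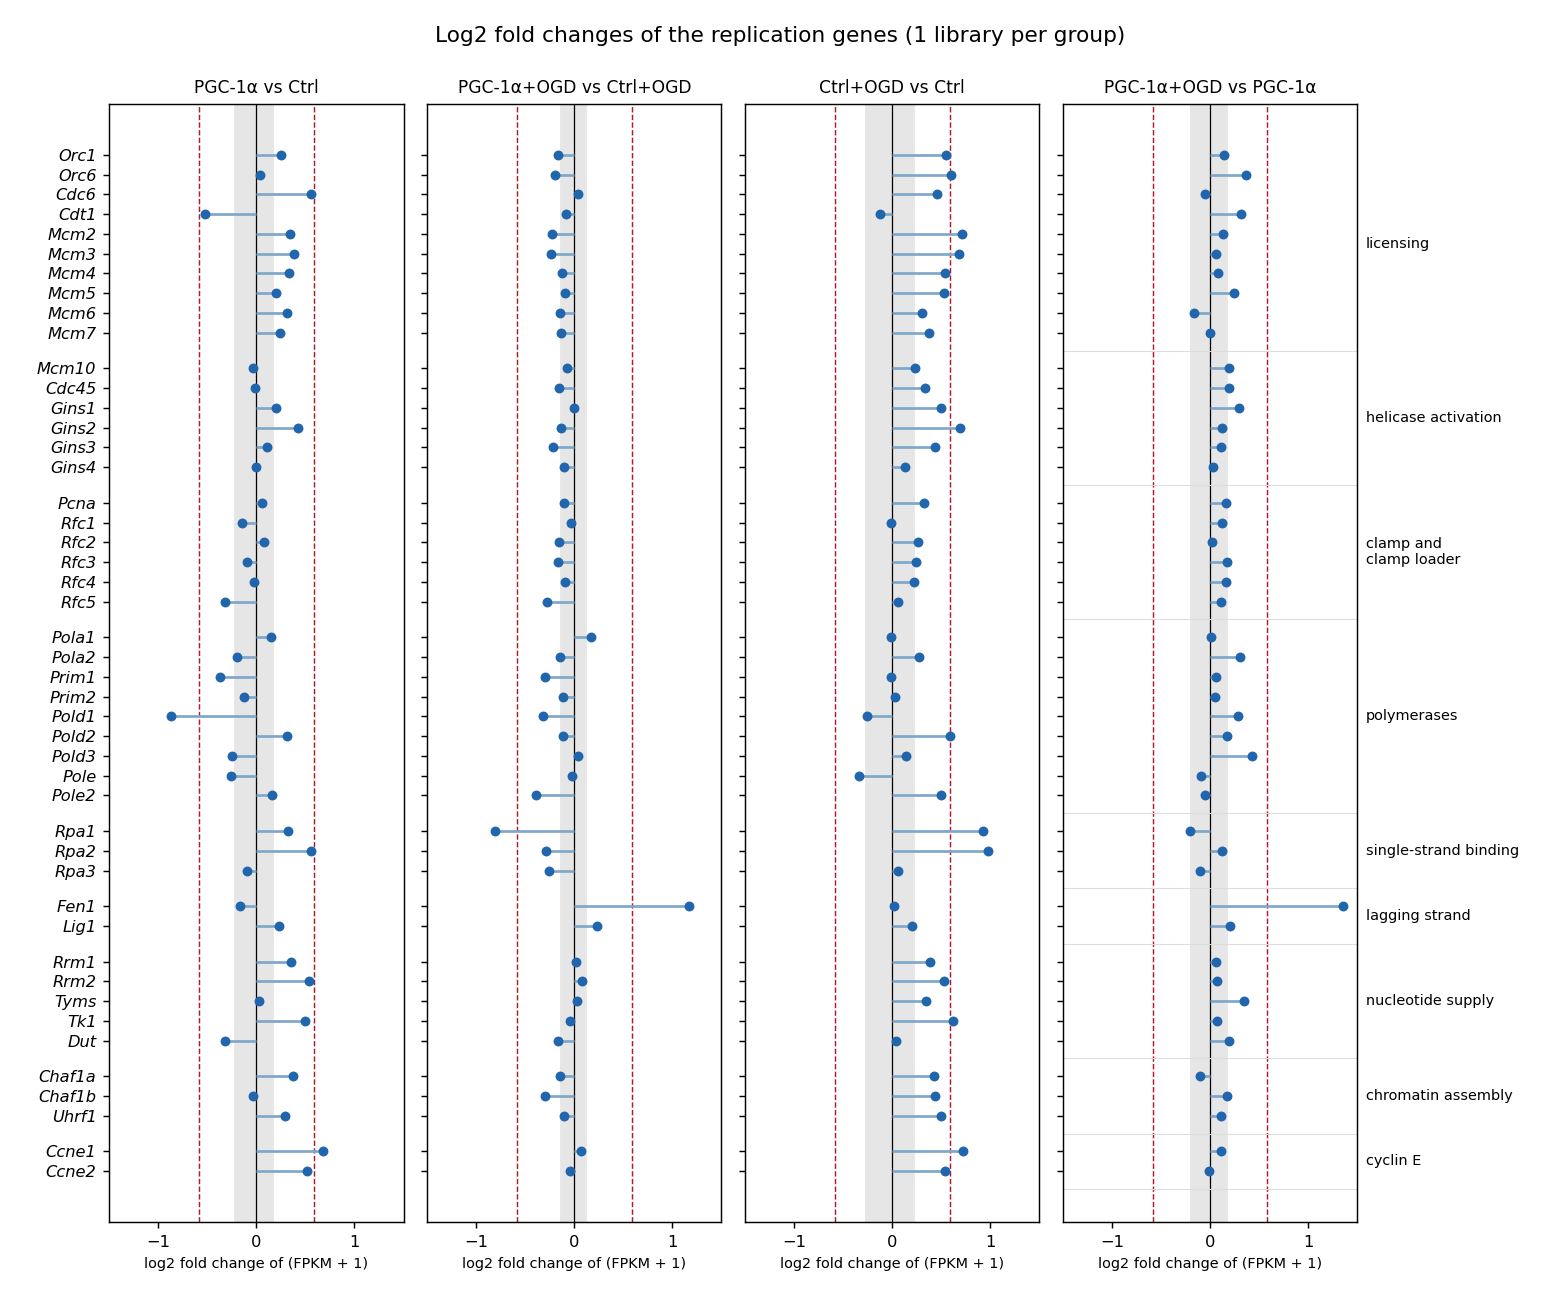
Log2 fold change of (FPKM + 1) for each replication gene in the 4 comparisons, with the 1.5-fold limits as dashed lines and the middle 50% of all 10604 genes as a grey band. Nearly all points lie right of 0 in Ctrl+OGD vs Ctrl, where 9 pass the limit, and most lie on the left side in PGC-1α+OGD vs Ctrl+OGD, where Fen1 and Rpa1 stand out on opposite sides.

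The licensing genes were higher after OGD in control cells, with 1 exception. Of these 10 genes, 9 were above 0 in Ctrl+OGD vs Ctrl, with 0.54 as the median of their log2 fold changes, and 9 in PGC-1α vs Ctrl, where the median was 0.28. In PGC-1α+OGD vs Ctrl+OGD, 1 of the 10 was above 0 (median -0.14). The 6 subunits of the MCM ring, which unwinds the DNA, were lowest in Ctrl without exception, and their summed level was 290.2 (Ctrl), 363 (PGC-1α), 422 (Ctrl+OGD) and 374 FPKM (PGC-1α+OGD). Their order was the same in every library, Mcm3, Mcm6, Mcm4, Mcm2, Mcm5 and Mcm7 from high to low, although the ring holds each subunit once.

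Mcm3 (minus strand of chromosome 1, 20802968 to 20820312) was at 70.1 (Ctrl), 91.6 (PGC-1α), 113 (Ctrl+OGD) and 95.5 FPKM (PGC-1α+OGD). Its log2 fold change was 0.68 in Ctrl+OGD vs Ctrl and -0.24 in PGC-1α+OGD vs Ctrl+OGD. Mcm2 (minus strand of chromosome 6, 88883474 to 88898780) was at 38.7, 49.3, 63.7 and 54.2 FPKM in the same order of libraries, with a log2 fold change of 0.71 in Ctrl+OGD vs Ctrl. Both genes thus stood lowest in Ctrl, highest in Ctrl+OGD and between these with PGC-1α, and both have 1 deposited transcript. Mcm4 and Mcm5 had log2 fold changes of 0.54 and 0.53 in Ctrl+OGD vs Ctrl, Mcm7 0.38 and Mcm6 0.30. Mcm7 was at 28.5, 33.9, 37.4 and 33.8 FPKM. The microRNA genes Mir25 and Mir93 overlap an exon of at least 1 annotated Mcm7 transcript on the same strand. All transcript types were counted for this, so the overlap need not lie in a coding exon.

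Orc6, a subunit of the origin recognition complex (plus strand of chromosome 8, 85299632 to 85308278), was at 30.0 (Ctrl), 30.7 (PGC-1α), 46.0 (Ctrl+OGD) and 40.0 FPKM (PGC-1α+OGD). Unlike the MCM genes it was at about one level in both libraries without OGD, and its log2 fold change in Ctrl+OGD vs Ctrl was 0.60. Orc1, the largest subunit of the same complex, was at 4.44, 5.47, 6.98 and 6.11 FPKM. Cdc6, which helps to load the MCM ring, was at 5.16 (Ctrl), 8.07 (PGC-1α), 7.50 (Ctrl+OGD) and 7.77 FPKM (PGC-1α+OGD), so that Ctrl alone stood apart. Its log2 fold change in PGC-1α vs Ctrl was 0.56, the largest of the licensing genes. Cdt1, its partner in loading, was the exception, highest in Ctrl at 15.2 FPKM and lowest in PGC-1α at 10.3 FPKM, with 13.9 (Ctrl+OGD) and 13.1 FPKM (PGC-1α+OGD) after OGD. Its log2 fold change was -0.52 in PGC-1α vs Ctrl and -0.12 in Ctrl+OGD vs Ctrl.

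The promoters of the licensing genes were chosen for display after their values were seen. The letters searched were TTTGGCG, its variant TTTCCCG, the form TTTCGCG and also TTTGCCG, each on either strand, which are forms of the E2F binding sequence. The 5 licensing genes whose promoter holds 2 or more matches are shown, as RefSeq gives them for GRCm38.p6, from 250 bases before to 50 bases after the annotated start, 5′ to 3′ on the strand of the gene, with the matches in capitals. They include Cdt1, whose values went the other way. Mcm2 and Orc6 had no match in this window, and Mcm4 had no promoter under its symbol.
Mcm3, chr1:20820263-20820562, minus strand: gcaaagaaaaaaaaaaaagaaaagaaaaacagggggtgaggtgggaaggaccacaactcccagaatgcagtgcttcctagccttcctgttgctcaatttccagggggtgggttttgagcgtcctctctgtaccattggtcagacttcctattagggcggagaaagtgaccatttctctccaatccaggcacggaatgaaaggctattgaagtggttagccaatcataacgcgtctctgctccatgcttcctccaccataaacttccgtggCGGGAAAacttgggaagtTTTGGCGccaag
Mcm5, chr8:75109259-75109558, plus strand: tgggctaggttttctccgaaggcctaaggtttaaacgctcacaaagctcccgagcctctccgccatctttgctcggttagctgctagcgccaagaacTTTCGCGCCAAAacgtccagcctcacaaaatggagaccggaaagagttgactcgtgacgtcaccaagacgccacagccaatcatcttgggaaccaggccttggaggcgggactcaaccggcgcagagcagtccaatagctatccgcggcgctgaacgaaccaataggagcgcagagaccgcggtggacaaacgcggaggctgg
Mcm6, chr1:128359656-128359955, minus strand: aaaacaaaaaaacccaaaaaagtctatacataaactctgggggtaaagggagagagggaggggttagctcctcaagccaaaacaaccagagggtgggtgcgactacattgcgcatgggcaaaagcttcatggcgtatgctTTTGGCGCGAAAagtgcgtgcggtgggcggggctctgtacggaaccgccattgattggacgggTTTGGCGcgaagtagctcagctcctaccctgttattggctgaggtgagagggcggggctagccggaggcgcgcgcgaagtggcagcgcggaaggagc
Mcm7, chr5:138171834-138172133, minus strand: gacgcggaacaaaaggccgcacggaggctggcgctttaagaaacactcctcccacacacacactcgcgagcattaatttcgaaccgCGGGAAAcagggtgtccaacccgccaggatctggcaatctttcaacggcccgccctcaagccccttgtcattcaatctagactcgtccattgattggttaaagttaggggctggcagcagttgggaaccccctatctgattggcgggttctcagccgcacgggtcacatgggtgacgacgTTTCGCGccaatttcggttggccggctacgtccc
Cdt1, chr8:122567765-122568064, plus strand: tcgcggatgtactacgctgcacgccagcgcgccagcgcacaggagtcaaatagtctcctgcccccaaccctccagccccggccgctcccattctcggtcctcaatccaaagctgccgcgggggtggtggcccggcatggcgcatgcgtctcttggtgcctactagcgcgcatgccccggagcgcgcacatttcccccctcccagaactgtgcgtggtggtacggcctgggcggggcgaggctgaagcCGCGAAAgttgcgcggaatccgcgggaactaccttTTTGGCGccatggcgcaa
In Mcm5 and Mcm6, 2 matches on opposite strands overlap and form a single run of capitals. In Mcm3 both matches lie downstream of the start, as does 1 of the 2 in Mcm7, and in Cdt1 they lie at the start and downstream of it.

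Over the list, 38 genes had a promoter in the RefSeq table, with 44 promoters in all. The E2F-type letters were found in 21 of the 44 promoters (47.7%), against 6.7% of all 32851 promoters of the same length and 11.2% of the promoters of the genes tested. The CCAAT box, a common promoter element bound by NF-Y and read on either strand, was found in 25 of the 44 (56.8%), against 37.4% of all promoters and 38.7% of those of the genes tested. No match of one overlapped a match of the other. Among 41 promoters of replication genes outside the list, 16 held the E2F-type letters (39.0%) and 20 a CCAAT box (48.8%). Of the 38 genes, 21 held the E2F-type letters, 23 a CCAAT box and 13 both. In Ctrl+OGD vs Ctrl the log2 fold changes of the 21 genes with the letters had 0.30 as their median and those of the 17 without them 0.39. In PGC-1α vs Ctrl the order was the other way, 0.16 with and 0.04 without the letters. The medians were -0.15 and -0.11 in PGC-1α+OGD vs Ctrl+OGD and 0.11 and 0.13 in PGC-1α+OGD vs PGC-1α, so neither set was the higher one throughout. Ccne1, Rpa2, Mcm2 and Tk1 were among the genes with no match in this window.

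**Figure D3:**
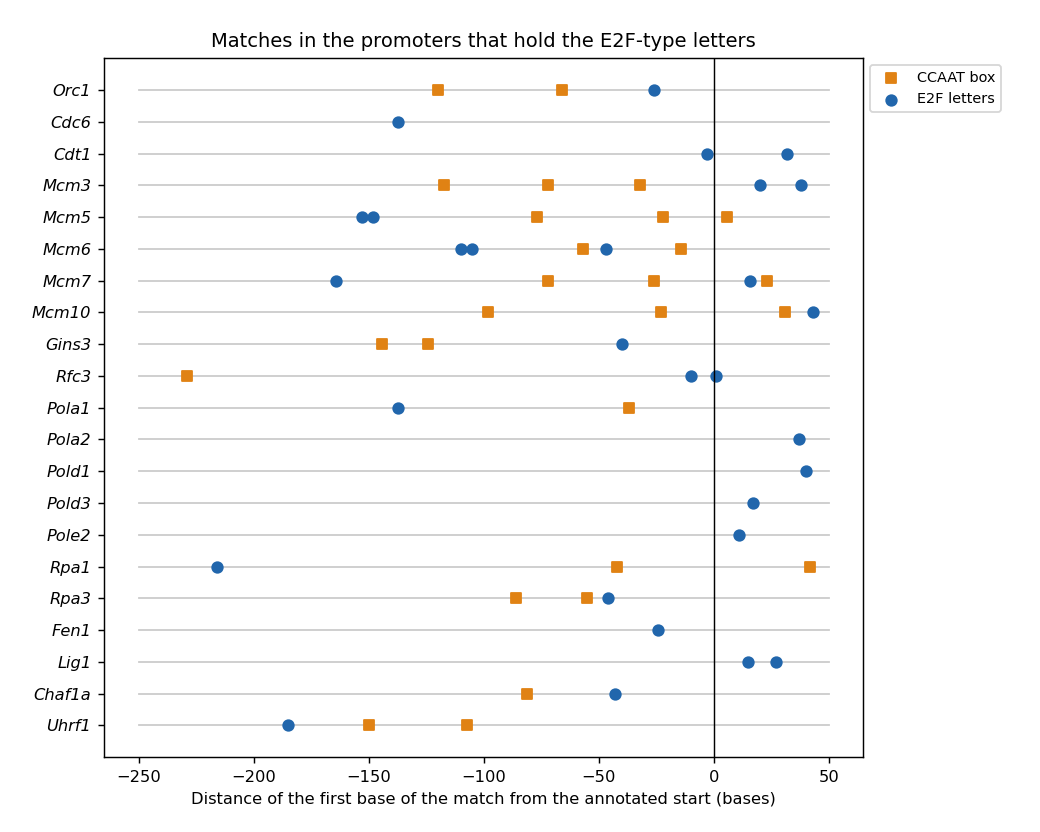
Position of the matches in the 21 replication gene promoters that hold the E2F-type letters, as the distance in bases from the annotated start to the first base of the match, with circles for E2F-type letters and squares for CCAAT boxes. The E2F-type matches are spread on both sides of the start, with a median distance of -24 bases, and the squares lie mostly before it.

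The genes for helicase activation were higher after OGD as well. All 6 were above 0 in Ctrl+OGD vs Ctrl (median 0.38) and all 6 in PGC-1α+OGD vs PGC-1α (median 0.15), whereas in PGC-1α+OGD vs Ctrl+OGD none was (median -0.12). GINS is a complex of 4 subunits. Gins2 (minus strand of chromosome 8, 120578633 to 120589304) was at 13.0 (Ctrl), 17.8 (PGC-1α), 21.6 (Ctrl+OGD) and 19.5 FPKM (PGC-1α+OGD). This is the stepwise order of Mcm2 and Mcm3, and its log2 fold change of 0.69 in Ctrl+OGD vs Ctrl was the only one of the group past 1.5-fold. Gins1 was at 34.4 and 39.5 FPKM without OGD and at 49.0 and 48.9 FPKM with OGD, in Ctrl and PGC-1α cells. Gins3 was at 9.69 (Ctrl), 10.5 (PGC-1α), 13.5 (Ctrl+OGD) and 11.4 FPKM (PGC-1α+OGD). Gins4, between 32.8 and 36.0 FPKM, varied least. Cdc45, which joins GINS and MCM in the active helicase, was at 32.9 (Ctrl), 32.5 (PGC-1α), 41.7 (Ctrl+OGD) and 37.1 FPKM (PGC-1α+OGD). Mcm10, a factor needed for helicase activation, ranged from 18.0 to 21.7 FPKM. For these last genes, the libraries with OGD were above both libraries without it.

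The clamp and its loader varied little. Pcna, the ring that holds the polymerases on DNA, was at 114 (Ctrl), 118 (PGC-1α), 142 (Ctrl+OGD) and 133 FPKM (PGC-1α+OGD), and its log2 fold change in Ctrl+OGD vs Ctrl was 0.32. Their log2 fold changes lay between -0.32 and 0.32 in all 4 comparisons, and none passed 1.5-fold. Over all genes, 3.08% to 7.71% passed it in each direction and comparison, so for 6 genes this count says little. The loader subunits Rfc2, Rfc3 and Rfc4 had log2 fold changes of 0.22 to 0.26 in Ctrl+OGD vs Ctrl, and Rfc1 and Rfc5 of -0.01 and 0.06. Rfc5 was lower with PGC-1α in both settings, at 17.2 (Ctrl) against 13.6 FPKM (PGC-1α) without OGD and 18.0 against 14.7 FPKM with it. These log2 fold changes, -0.32 and -0.28, come from comparisons that share no library.

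The polymerase genes did not share the pattern of the licensing genes. Their median log2 fold change was 0.03 in Ctrl+OGD vs Ctrl (5 of 9 above 0), and it was -0.05 when each column was scaled to a fixed total. In PGC-1α vs Ctrl it was -0.20, with 3 of 9 above 0. Prim1, the catalytic subunit of primase, was lower with PGC-1α in both settings, at 13.9 (Ctrl) against 10.5 FPKM (PGC-1α) without OGD and 13.8 against 11.0 FPKM with it. Its log2 fold changes were -0.37 and -0.30, and those for OGD were -0.01 and 0.06, so that Prim1 was lower in both PGC-1α libraries and hardly moved with OGD. Prim2, its partner, was between 38.8 and 43.6 FPKM. Pola1, the catalytic subunit of polymerase alpha, was at 20.6 and 20.4 FPKM in the Ctrl libraries and at 22.9 and 23.0 FPKM in the PGC-1α libraries, and Pola2, its B subunit, ranged from 22.3 to 31.2 FPKM.

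Polymerase delta copies the lagging strand. Pold2, an accessory subunit (minus strand of chromosome 11, 5872180 to 5878292), was at 19.4 (Ctrl), 24.3 (PGC-1α), 29.8 (Ctrl+OGD) and 27.6 FPKM (PGC-1α+OGD). It was the polymerase gene with the order seen for Mcm2, and its log2 fold change in Ctrl+OGD vs Ctrl was 0.59. Pold3, a further accessory subunit, was at 29.2, 24.4, 32.2 and 33.2 FPKM. Pold1, the catalytic subunit (minus strand of chromosome 7, 44532746 to 44548849), was far below its partners, at 2.47, 0.894, 1.89 and 1.32 FPKM, and the highest subunit exceeded it 11.8-fold in Ctrl and 27.3-fold in PGC-1α. Both PGC-1α libraries were below both Ctrl libraries in Pold1, and the log2 fold change was -0.87 without OGD and -0.32 with OGD. The lower value in PGC-1α came mainly from the short transcript Pold1-206 of 581 bases, listed at 1.21 (Ctrl) and 0.12 FPKM (PGC-1α), while Pold1-201 of 3454 bases was at 1.25 and 0.774 FPKM. With the highest transcript alone, Pold1 had a log2 fold change of -0.35, which is not past 1.5-fold. Pole, the catalytic subunit of polymerase epsilon on the leading strand, was highest in Ctrl at 20.1 FPKM and between 15.5 and 16.6 FPKM in the other libraries. Its partner Pole2 was at 19.6, 22.0, 28.1 and 21.2 FPKM, so that the subunits of this enzyme differed in which library was highest.

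RPA covers single-stranded DNA and has 3 subunits. Rpa2 (plus strand of chromosome 4, 132768332 to 132778752) was at 12.5 (Ctrl), 18.9 (PGC-1α), 25.6 (Ctrl+OGD) and 20.7 FPKM (PGC-1α+OGD). Its log2 fold change of 0.98 in Ctrl+OGD vs Ctrl was the largest of the list in that comparison. Rpa1 (minus strand of chromosome 11, 75298166 to 75348324) was at 23.3, 29.4, 45.3 and 25.5 FPKM in the same order. Ctrl+OGD alone was high in Rpa1, with log2 fold changes of 0.93 in Ctrl+OGD vs Ctrl and -0.81 in PGC-1α+OGD vs Ctrl+OGD. Part of this was in the transcript Rpa1-201, at 2.80 (Ctrl), 1.85 (PGC-1α), 13.7 (Ctrl+OGD) and 0.0124 FPKM (PGC-1α+OGD). With Rpa1-202 alone, the transcript with the highest mean, the value in PGC-1α+OGD vs Ctrl+OGD was -0.30 and not past 1.5-fold, and that in Ctrl+OGD vs Ctrl was 0.60 and past it. Rpa1 shares exons on its strand with Gm47300. Rpa3, the smallest subunit, was between 35.4 and 42.7 FPKM and did not pass 1.5-fold in any comparison.

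Fen1 and Lig1 finish the lagging strand, Fen1 by cutting the flaps that carry the RNA primers and Lig1 by sealing the nicks. Fen1 (minus strand of chromosome 19, 10199132 to 10204169) was at 13.5 (Ctrl), 11.9 (PGC-1α), 13.7 (Ctrl+OGD) and 32.1 FPKM (PGC-1α+OGD). PGC-1α+OGD thus stood apart from the other libraries, which were at nearly one level, with log2 fold changes of 1.17 against Ctrl+OGD and 1.36 against PGC-1α, the highest values of the list. The whole difference was in the transcript Fen1-201, at 20.3 FPKM in PGC-1α+OGD and at 0.00199, 0.00395 and 0.00479 FPKM in Ctrl, PGC-1α and Ctrl+OGD. Fen1-202 went the other way, at 9.28, 7.36, 7.44 and 5.11 FPKM, and its log2 fold changes were -0.47 and -0.45 in these comparisons. Fen1-203 was at 4.19, 4.49, 6.23 and 6.65 FPKM. The exons of Fen1 overlap those of Tmem258 and Gm10143 on the opposite strand. Lig1 was at 39.0 (Ctrl), 46.0 (PGC-1α), 44.9 (Ctrl+OGD) and 53.0 FPKM (PGC-1α+OGD), and was higher by nearly the same step with PGC-1α (0.23 without and with OGD) and with OGD (0.20 in both cell types).

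Such shifts between transcripts were seen in other members. Of the 46 genes, 27 had 2 or more deposited transcripts, and in 8 of them at least 1 call at 1.5-fold differed between the sum and the highest transcript, against 38.7% of the 6405 tested genes with 2 or more transcripts. The replication genes did not exceed the rate of the whole table. Chaf1b-202 was at 10.1 FPKM in Ctrl and listed at 0 in the other libraries, and Chaf1b-201 was at 7.72 (Ctrl), 17.0 (PGC-1α), 24.4 (Ctrl+OGD) and 19.5 FPKM (PGC-1α+OGD). The sum hardly differed between Ctrl and PGC-1α, while Chaf1b-201 alone had a log2 fold change of 1.05. Pole2-202 held 48.6% of the Pole2 level in PGC-1α+OGD and at most 1.11% in the other libraries, and Pole2 shares exons on its strand with Gm49384. In Mcm6, the share of Mcm6-203 was 55.7% in PGC-1α+OGD and between 30.3% and 41.0% in the others. The sum of Mcm6 was 68.7 (Ctrl), 85.3 (PGC-1α), 84.7 (Ctrl+OGD) and 76.4 FPKM (PGC-1α+OGD). The share of Uhrf1-201 was 9.33% of Uhrf1 in Ctrl and 38.0% in PGC-1α+OGD. In Fen1 and Pole2 the library with the most unlike transcript shares was PGC-1α+OGD, and in Chaf1b it was Ctrl. How the values were estimated is not given in the sources used here, and its part in these shifts was not tested.

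**Figure D4:**
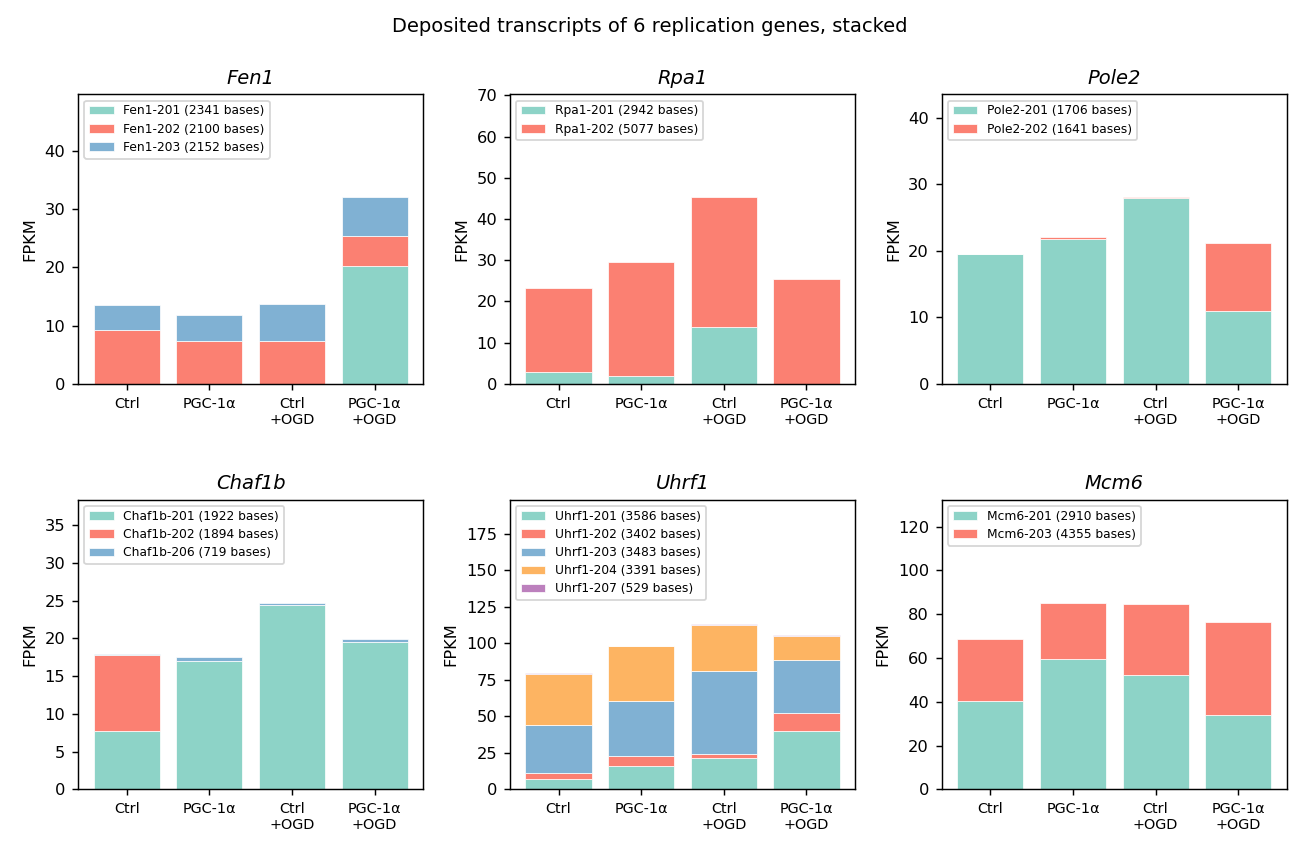
Deposited transcripts of the replication genes with the largest shifts, stacked within each library in FPKM, with the annotated length of each transcript in the key. Fen1-201 and Pole2-202 appear almost only in PGC-1α+OGD, Chaf1b-202 only in Ctrl, and Rpa1-201 mainly in Ctrl+OGD, at 13.7 FPKM.

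The genes of nucleotide supply were lowest in Ctrl in most cases. Rrm2, the regulated subunit of ribonucleotide reductase, was at 89.5 (Ctrl), 131 (PGC-1α), 130.1 (Ctrl+OGD) and 137 FPKM (PGC-1α+OGD). Rrm1, the large subunit, was at 90.0, 115, 118 and 119.6 FPKM. Both subunits were therefore lower in Ctrl than in the other libraries, which were at about one level, with log2 fold changes of 0.54 and 0.35 in PGC-1α vs Ctrl. Tk1, the thymidine kinase of dividing cells (minus strand of chromosome 11, 117815526 to 117826092), was at 43.0, 61.3, 66.4 and 64.4 FPKM, and its log2 fold change was 0.62 in Ctrl+OGD vs Ctrl and 0.50 in PGC-1α vs Ctrl. Tyms, the thymidylate synthase, followed OGD, at 11.4 and 11.6 FPKM without and 14.7 and 15.1 FPKM with it, a log2 fold change of 0.35 in both cell types. Dut, which removes dUTP, was lowest in PGC-1α at 76.7 FPKM, against 95.7 (Ctrl), 98.5 (Ctrl+OGD) and 87.4 FPKM (PGC-1α+OGD).

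Chaf1a, the large subunit of the chromatin assembly factor that places histones behind the fork, was at 51.7 (Ctrl), 67.2 (PGC-1α), 69.9 (Ctrl+OGD) and 62.8 FPKM (PGC-1α+OGD). Uhrf1, which guides the copying of DNA methylation, was at 79.5, 97.7, 113 and 105 FPKM. Both had Ctrl as the lowest library, and their log2 fold changes in Ctrl+OGD vs Ctrl were 0.43 and 0.50. Chaf1b, the middle subunit of the assembly factor, was at 18.0 and 17.5 FPKM in Ctrl and PGC-1α and at 24.8 and 19.9 FPKM after OGD.

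The cyclin E genes had the highest median of all roles in PGC-1α vs Ctrl, 0.60. Ccne1, which with CDK2 drives entry into S phase (minus strand of chromosome 7, 38097984 to 38107534), was at 28.3 (Ctrl), 45.9 (PGC-1α), 47.1 (Ctrl+OGD) and 49.5 FPKM (PGC-1α+OGD). Its log2 fold change was 0.68 in PGC-1α vs Ctrl and 0.72 in Ctrl+OGD vs Ctrl, and 0.07 and 0.11 in the comparisons that do not use Ctrl. Ccne2 was at 9.75, 14.4, 14.6 and 14.2 FPKM, with 0.52 and 0.54 in the comparisons with Ctrl. Both cyclin E genes thus had Ctrl below the other libraries, which lay close together, as did Rrm1, Rrm2 and Cdc6.

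The difference between Ctrl and PGC-1α cells in the replication genes was not alike without and with OGD. Ppargc1a was at 35.1 FPKM in PGC-1α and at 8.41 FPKM in PGC-1α+OGD, so the overexpression itself also differed. Its part in what follows was not tested. The log2 fold change for PGC-1α was larger without OGD in 32 of the 46 genes, against 49.3% of all genes, and the median of this difference was 0.24, against -0.01. The same difference was positive in 19 of 22 mitosis genes (median 0.32), so it was not particular to the list. It was positive in 27 of 44 other replication genes (0.09) and 12 of 21 regulators of S phase entry (0.08). With 1 library per group this difference was not tested. Within the list it was positive in 9 of 10 licensing genes (median 0.44), in all 6 genes for helicase activation (0.17) and all 3 RPA genes (0.85). The same held for all 3 chromatin assembly genes (0.40) and both cyclin E genes (0.58). It was positive in 3 of 5 genes of nucleotide supply (0.33) and 4 of 6 of the clamp and its loader (0.07). In the polymerases it was positive in 2 of 9 (-0.05), and in Fen1 and Lig1 in neither (-0.67). Opposite signs at least 1.5-fold apart were seen in 4 of the 46 genes, against 11.2% of all genes. The same number describes the OGD difference of control cells minus that of PGC-1α cells, since both are formed from the same 4 libraries.

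Further genes of replication and the cell cycle were read for context. Of 44 other replication genes, 33 were above 0 in Ctrl+OGD vs Ctrl (median 0.20), 2 were at least 1.5-fold higher (Asf1b and Pclaf) and 2 lower (Donson and Dtl), both below the shares over all genes, 6.2% and 7.71%. Their median was 0.08 in PGC-1α vs Ctrl, with 2 higher (Cdc7 and Rnaseh2c) and 1 lower (Dtl), against 4.91% and 5.63% of all genes. With OGD, PGC-1α cells against control cells had a median of 0.00. Here 3 were higher (Cdc7, Dna2 and Dtl) and none lower, against 3.08% and 3.82% of all genes. For OGD in PGC-1α cells it was 0.13, with Dtl higher and Donson lower, against 3.82% and 5.22%. Of these counts, only the 3 higher genes (6.82% of the list) exceeded the share over all genes. Cdc7, the kinase that activates MCM at origins, was at 2.78 (Ctrl), 7.35 (PGC-1α), 4.12 (Ctrl+OGD) and 9.40 FPKM (PGC-1α+OGD). It was thus higher with PGC-1α both without and with OGD, in comparisons that share no library (log2 fold changes 1.15 and 1.02). Dtl, which directs the destruction of CDT1 in S phase, was at 19.4, 10.4, 12.5 and 20.9 FPKM, with -0.84 in PGC-1α vs Ctrl and 0.70 in PGC-1α+OGD vs Ctrl+OGD. Donson, a factor in helicase assembly, was lower in both libraries after OGD, at 5.22 and 5.86 FPKM without and 2.76 and 2.01 FPKM with OGD, as a sum of its transcripts. This turned with the transcript, since the highest transcript of Donson had log2 fold changes of 0.60 and 0.01 where the sum had -0.73 and -1.19. Asf1b, a histone chaperone, had 0.75 in Ctrl+OGD vs Ctrl, and Rnaseh2c, a subunit of ribonuclease H2, 0.67 in PGC-1α vs Ctrl.

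Among 21 tested regulators of S phase entry, 14 were above 0 in Ctrl+OGD vs Ctrl (median 0.19), 3 were at least 1.5-fold higher (Ccna2, Fbxw7 and Mybl2) and 1 lower (Myc, which had -0.63 as a sum and 0.05 with its highest transcript), against 6.2% and 7.71% of all genes, and their medians in the comparisons of PGC-1α with control were 0.02 and -0.01. Myc, a transcription factor that promotes growth, was at 77.5 (Ctrl), 33.0 (PGC-1α), 49.8 (Ctrl+OGD) and 51.5 FPKM (PGC-1α+OGD). It was highest in Ctrl, where most replication genes were lowest. Cdc25a, a phosphatase that activates CDK2, was at 4.0, 6.90, 4.20 and 2.88 FPKM. Mybl2 and Ccna2, both characteristic of dividing cells, had log2 fold changes of 0.82 and 0.66 in Ctrl+OGD vs Ctrl, and Fbxw7, which marks cyclin E for destruction, was at 9.18 FPKM in Ctrl+OGD and between 3.80 and 4.55 FPKM in the others.

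Mitosis genes were higher beside the replication genes and by more, except in PGC-1α+OGD vs Ctrl+OGD. Of 22, 21 were above 0 in Ctrl+OGD vs Ctrl (median 0.55) and 11 were at least 1.5-fold higher (12 with the highest transcript), against 6.2% of all genes, and Ctrl was the lowest library in 20 of them. In PGC-1α vs Ctrl the median was 0.42, in PGC-1α+OGD vs PGC-1α 0.24 and in PGC-1α+OGD vs Ctrl+OGD 0.02, where the replication genes had -0.12. The highest library was PGC-1α+OGD in 14 of the 22 mitosis genes and Ctrl+OGD in 6, unlike in the replication genes. Plk1, a kinase of mitotic entry, was at 16.6 (Ctrl), 31.6 (PGC-1α), 44.9 (Ctrl+OGD) and 41.7 FPKM (PGC-1α+OGD). Cdc20, Cenpa and Aurka had log2 fold changes of 0.83 to 0.94 in Ctrl+OGD vs Ctrl. Kif20a had 0.92 as a sum but -1.80 with its highest transcript, so its direction depends on that choice. The promoters of 19 mitosis genes held a CCAAT box in 17 cases (89.5%) and the E2F-type letters in 3 (15.8%). The part of the share of dividing cells in the replication gene values was not tested.

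**Figure D5:**
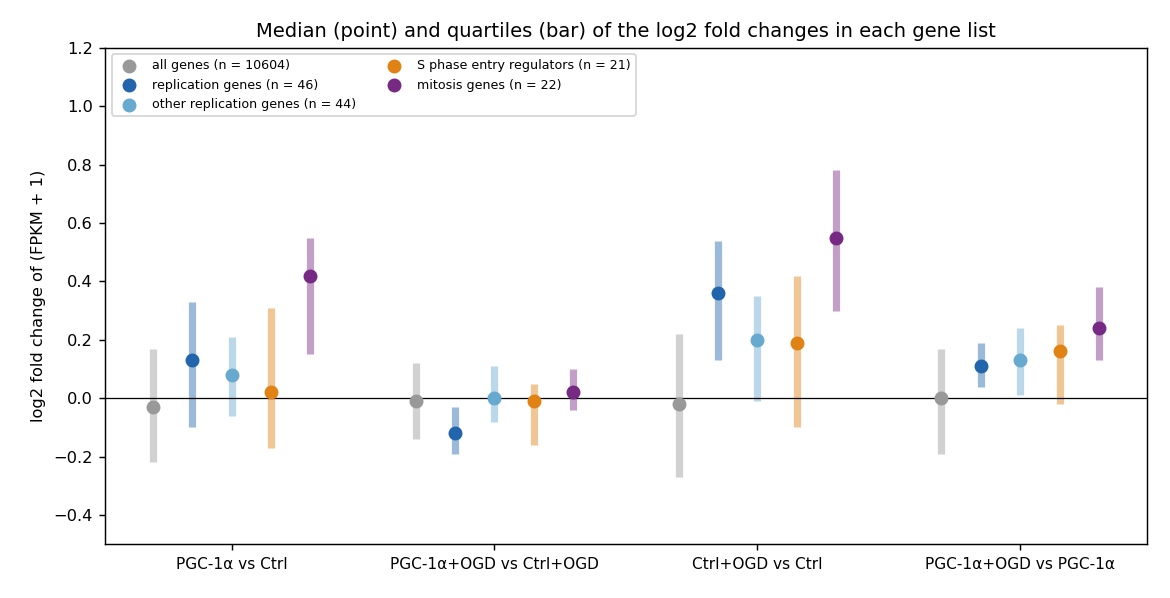
Median (point) and middle 50% (bar) of the log2 fold changes of (FPKM + 1) over the genes of each list, for the 4 comparisons. All genes stay near 0, the replication genes have medians of 0.13, -0.12, 0.36 and 0.11 from left to right, and the mitosis genes lie above them in each comparison.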

How the data were processed

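RNA-Seq of 4 libraries of HT-22 cells, 1 per group, was used, and groups were taken from the sample titles. Per the labels, the authors used HISAT2 2.1.0 and GRCm38 for paired-end alignment and deposited 1 value per Ensembl transcript. The unit is not named, and the deposited values were taken as FPKM because they are never negative and have unequal totals. The program behind the values and its filter are not given in the sources used here. Depth per library is unknown, and no interval can be given. Of 25889 transcripts, 25822 matched GENCODE M21 by identifier without version, and 67 were left out.

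Deposited transcripts were summed per gene symbol. Genes whose mean reached 1 FPKM were compared as differences of log2(FPKM + 1), with a limit of 1.5-fold, the fold criterion of the study. With 1 library per group no test was run. The genes and lists were chosen with earlier results of these data known. Values in all 4 libraries are given for members past 1.5-fold, for most of the largest differences of each role group and for members whose calls depend on the transcript. At most 5 genes past 1.5-fold were named from each of the other lists, to which Pclaf and Dna2 were added after their values were seen. Exon sharing was read from GENCODE M21, and promoters from RefSeq (GRCm38.p6), where 38 of 46 genes matched by symbol. Alternatives were a pseudocount of 0.1, no filter, a mean of at least 5, the highest transcript, scaling by a fixed total, the upper quartile or the median ratio, a 2-fold limit and, added after the data were seen, members with 1 deposited transcript. Computation was in Python 3.11.15 with pandas 2.3.3, numpy 2.4.6 and, for plots, matplotlib 3.10.9, and the code was tested on simulated data.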

Additional observations from a re-analysis of the deposited data

Results flagged for a closer look

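The log2 fold change for PGC-1α had opposite signs without and with OGD, at least 1.5-fold apart, in 4 of the 46 replication genes and 6 of the other named genes, against 11.2% of all genes. The other genes were named for being past 1.5-fold, so their number says little. These differences were not tested, since each group has 1 library. The value without OGD minus that with OGD was 0.62 for Mcm3, 1.13 for Rpa1, 0.85 for Rpa2 and -1.34 for Fen1. For Fen1 it came from the transcript Fen1-201, and with the highest transcript it was 0.17 with no opposite signs. For Rpa1 it came in part from Rpa1-201, and it was 0.71 with the highest transcript. Among the other genes it was -1.54 for Dtl, -1.25 for Myc, 1.08 for Cdc25a, 0.99 for Plk1, 0.70 for Kif20a and 0.68 for Rnaseh2c. With its highest transcript Kif20a had 0.57 without and 1.64 with OGD, a difference of -1.07 with no opposite signs. For Myc and Rnaseh2c the value with OGD was close to 0 (0.05 and -0.01).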

How the results depend on the processing

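No paired analysis was possible because each group has 1 library. All 32 alternative medians kept the sign of the reported one and lay within 0.1 of it. The counts past 1.5-fold rest on few genes. The share of all genes past the limit was not computed under each alternative, so the counts below have no background beside them. In PGC-1α vs Ctrl, 3 genes were higher with a pseudocount of 0.1, with median ratio scaling (Ccne1, Cdc6 and Rpa2 in each) or with the highest transcript (Ccne1, Ccne2 and Chaf1b), and 0 with a 2-fold limit or over the 19 members with 1 deposited transcript. The lower count, Pold1, was 0 with a mean of at least 5, the highest transcript, a 2-fold limit or these 19 members. In PGC-1α+OGD vs Ctrl+OGD, the highest transcript gave 0 higher and 3 lower (Mcm6, Pole2 and Uhrf1), a 2-fold limit 0 lower, and the 19 members 0 in either direction. In Ctrl+OGD vs Ctrl, 4 of the 19 members were higher (21.1%, beside 19.6% of the 46), and 0 of 46 at 2-fold. The highest transcript gave 12 higher, a pseudocount of 0.1 gave 10 and upper quartile scaling 7. Scaling to a fixed total gave 6 (Ccne1, Gins2, Mcm2, Mcm3, Rpa1 and Rpa2). For OGD in PGC-1α cells, the highest transcript gave 0 higher and 2 lower (Mcm6 and Pole2), and the 19 members 0 higher. Fixed-total scaling left 27 members lowest in Ctrl and 24 highest in Ctrl+OGD, against 23.1% and 19.2% of all genes.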
